A study of Mus musculus with 12 samples.

Results

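The 9 genes described here are transcription factors and signalling genes that set when a neural progenitor becomes a neuron: the basic helix-loop-helix (bHLH) factors Neurog1, Neurog2, Neurog3, Neurod1, Neurod4 and Atoh1, the Notch targets Hes1 and Hes5, and the Notch ligand Dll1. They were chosen by name out of 21938 protein-coding genes on chromosomes 1 to 19, X and Y. The rule uses no measured value, but earlier results of these data were known when it was set. For each gene, the accessible domains were collected that overlapped its promoter (transcription start site, TSS, ± 1 kb), its gene body, or the 50 kb on either side of the gene body. Gene body and flanks together are called the window of the gene.

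Proneural bHLH factors bind E-box sequences, drive progenitors out of the cell cycle and activate neuronal genes, among them Dll1. DLL1 on the surface of a differentiating cell activates Notch in its neighbours, where the RBPJ complex switches on Hes1 and Hes5, whose products repress the proneural genes. In the ventral spinal cord Neurog2 is known for its part in motor neuron differentiation, whereas Atoh1 marks the most dorsal interneuron progenitors and Neurog3 is best known from the endocrine pancreas.

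ATAC-seq, which reads accessible DNA by the insertion of a transposase, was carried out on mouse embryonic stem cells (ESCs) differentiating towards motor neurons, to ask how chromatin looks before and after the induction of Hox factors. There were 12 samples in 6 groups, with 2 samples and 1 list of accessible domains per group. EB was the embryoid bodies of the line Ainv15(iCre) without patterning signals. Progenitors were embryoid bodies of the same line after 2 days of retinoic acid (RA, 1 µM) and the Hedgehog agonist SAG (0.5 µM). The other groups all had 4 days of RA and SAG. For iHoxc6, iHoxc9 and iHoxc10, the lines Ainv15(iFlag.Hoxc6), Ainv15(iFlag.Hoxc9) and Ainv15(iFlag.Hoxc10) also received 3 µg/mL of doxycycline (Dox) during the final 48 h. No Dox was Ainv15(iFlag.Hoxc6) without Dox. Each Hox line carried 1 copy of a Flag-tagged transgene at the HPRT locus under a Dox-inducible promoter, and per the study the cultures give rise to motor neurons together with interneurons. A smaller domain can mean fewer cells with the site open or a less open site in each cell, and these cannot be told apart in bulk cultures.

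Each list was made by the authors from both replicates together and holds only domain positions. A difference between lists therefore has no replicate error and no test, read depth is unknown, and every value below is a description of 6 lists. The lists held 56232 (iHoxc10) to 94875 domains (EB) covering 17.8 Mb (iHoxc9) to 29.7 Mb (no Dox), and 15.7% (iHoxc10) to 36.5% (iHoxc6) of their domains were under 50 bp wide. The no Dox list was recorded separately from the others and has 3 additional constant columns. The day in the name of its file differs from the day of its samples, which was the one used, and the name carries a p-value tag that the other names lack, so it may have been called at another threshold. Record series and possible calling settings therefore cannot be told apart from the absence of Dox, and for iHoxc9 and iHoxc10 neither can the cell line, whereas iHoxc6 and no Dox came from the same line. Markers of the labelled cells were checked at gene starts. Of 5 pluripotency markers, 4 had a promoter domain in EB, 2 in progenitors and 1 in each of the day 4 lists: Pou5f1 and Nanog in EB alone (744 and 623 bp), Zfp42 in EB and progenitors, Tfcp2l1 in all 6 lists and Esrrb in none. With the start of any transcript counted, 5 had one in EB, 3 in progenitors and 2 in each of the day 4 lists. The 5 neural progenitor markers (Pax6, Olig2, Nkx6-1, Sox1, Nkx2-2) had 4 or 5 promoters with a domain in every list and the 5 motor neuron markers (Isl1, Mnx1, Lhx3, Chat, Slc18a3) likewise. Promoter domains at 3 to 5 of 5 mesoderm and endoderm markers (T, Tbx6, Sox17, Gata6, Foxa2) were present in every list too. The presence of a promoter domain thus did not separate these cell types, apart from the lower count of pluripotency markers after EB. The part of other cell types in the results below was not tested.

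The proneural and Notch genes were accessible at their promoters from the start. In EB, progenitors, no Dox and iHoxc9 all 9 promoters held a domain, and in iHoxc6 and iHoxc10 8 of 9 did, the exception in both being Neurog3. Of all protein-coding genes, 65.6% had a promoter domain in EB, 63.0% in progenitors, 62.1% in no Dox, 62.3% in iHoxc6, and 59.3% and 59.0% in iHoxc9 and iHoxc10. What varied was how much was open. The 9 windows together were covered over 25508 bp in EB, 40446 bp in progenitors, 49297 bp in no Dox, 40591 bp in iHoxc6, and 24416 bp and 33597 bp in iHoxc9 and iHoxc10. This was 0.111% of all accessible bp in EB and 0.157%, 0.166%, 0.164%, 0.137% and 0.167% in the same order of the other lists, so the share held by these windows was lowest in EB and next lowest in iHoxc9.

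**Figure D1:**
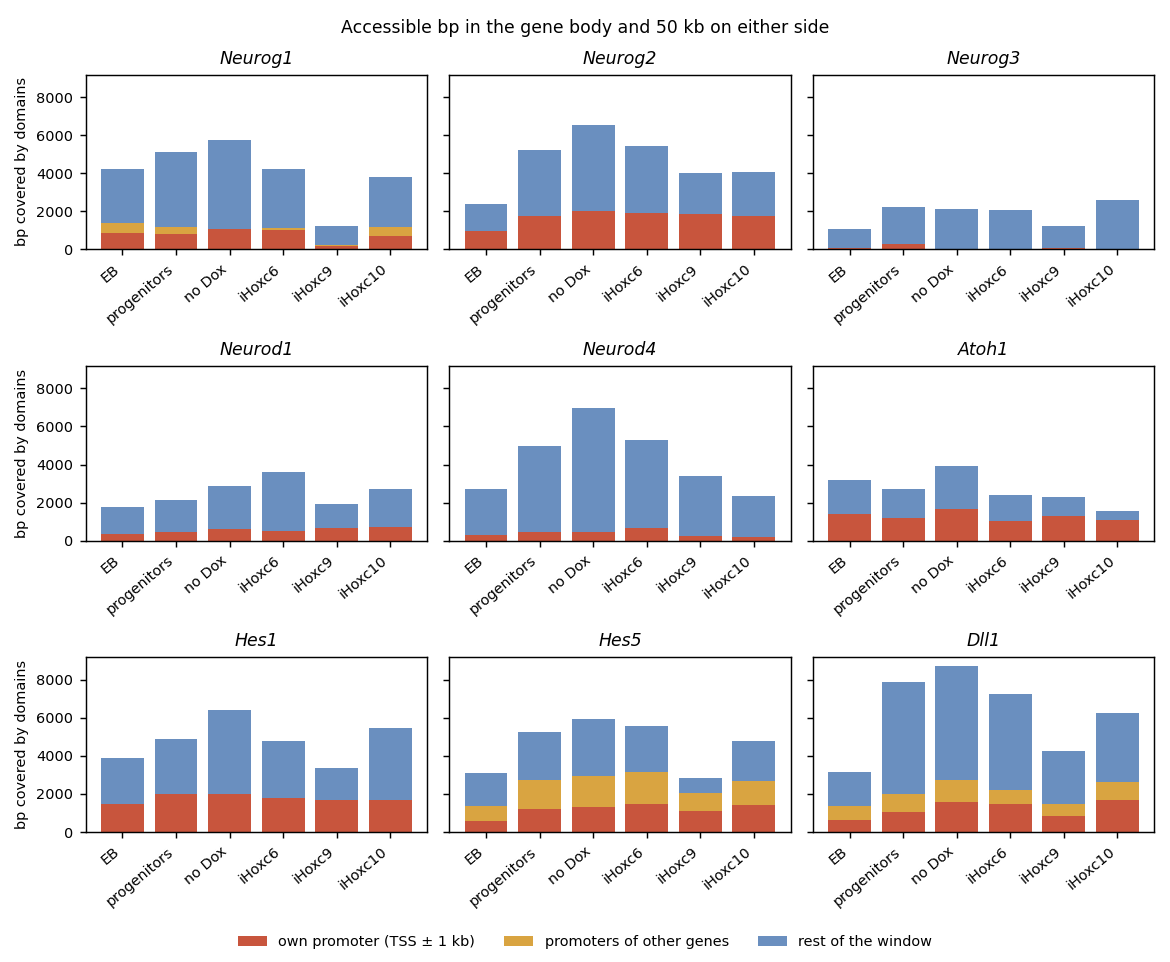
Stacked bars give, for each gene (panels) and list (x axis), the bp covered by accessible domains (y axis) in the gene body and 50 kb on either side, split into the gene's own promoter, promoters of other protein-coding genes and the rest; there is 1 list per group, so no error bars. The window of Neurog1 fell to 1232 bp in iHoxc9, and that of Dll1 stood at 3172 bp in EB and 7905 bp in progenitors.

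Neurog2 (chromosome 3, 127633135 to 127635631, plus strand, GRCm38) had the most promoter bp covered among the 6 bHLH genes in every list but EB, where Atoh1 had more. Of the 2001 bp of its promoter, 974 bp were covered in EB, 1730 bp in progenitors, 2001 bp in no Dox, 1905 bp in iHoxc6, and 1858 bp and 1732 bp in iHoxc9 and iHoxc10. All day 2 and day 4 lists were thus close to fully open and EB was not. The promoter formed part of a region (chr3:127631754-127635476) that spanned most of the gene and was covered over 1407, 2306, 3723, 2824, 2374 and 2597 bp in the order EB, progenitors, no Dox, iHoxc6, iHoxc9, iHoxc10, which is kept for runs of values below. In no Dox it was a single domain of 3723 bp, the widest in any window of the 9 genes. Over the whole window 2390, 5219, 6549, 5414, 3984 and 4061 bp were covered, with EB lowest and no Dox highest. Besides the promoter, 3 regions were held by all 6 lists, at 7.28 and 4.75 kb upstream and 7.03 kb downstream of the TSS. The one 4.75 kb upstream widened from 134 bp in EB to 855 bp in progenitors and 1313 bp in no Dox, and was covered over 1248, 367 and 479 bp in iHoxc6, iHoxc9 and iHoxc10. The window contains no TSS of another protein-coding gene.

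Neurog1 (chromosome 13, 56250478 to 56252163, minus strand), a close relative of Neurog2, differed from it in the iHoxc9 list. Its promoter was covered over 866 bp in EB, 828 bp in progenitors, 1049 bp in no Dox, 1006 bp in iHoxc6, and 173 bp and 720 bp in iHoxc9 and iHoxc10. The gene body was covered over 585, 611, 854, 522, 0 and 355 bp, and the window over 4216, 5131, 5759, 4219, 1232 and 3781 bp in 14, 17, 18, 12, 7 and 10 domains. iHoxc9 was the lowest list on all 3 measures, and the other 5 lists were at least 3 times higher over the window. Within the stretch from 10 kb upstream to 12 kb downstream of the TSS, the only domain of iHoxc9 was the narrow one at the promoter. Farther out it kept 747 bp of a region 30.4 kb downstream that was covered over 580 bp in EB and 1372 to 1376 bp in progenitors and no Dox. The region at the promoter of the neighbour Cxcl14, 44.2 kb upstream of Neurog1, was covered over 62 bp in iHoxc9, but also over only 42 bp in no Dox, against 512 bp in EB.

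**Figure D2:**
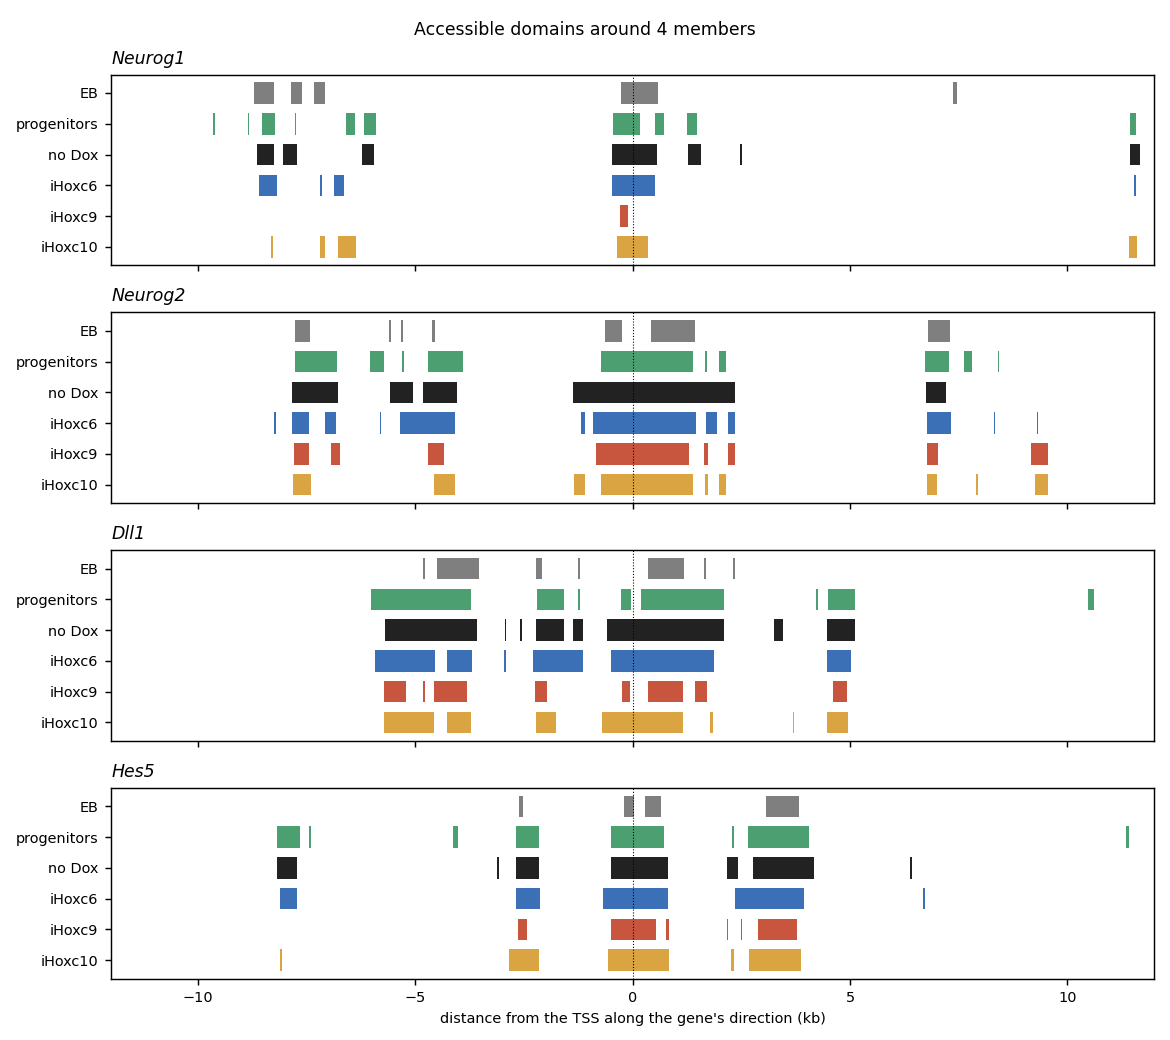
Accessible domains (coloured bars) of the 6 lists (rows) within 12 kb of the TSS of Neurog1, Neurog2, Dll1 and Hes5 (panels), plotted by distance from the TSS in kb along the direction of the gene, with the TSS as a dotted line. At Neurog1 the iHoxc9 row holds a single domain of 173 bp, whereas at Neurog2, Dll1 and Hes5 the same row holds several domains, with the TSS itself inside one at Neurog2 and Hes5 and between them at Dll1.

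Neurog3 (chromosome 10, 62133090 to 62134763, plus strand) had the least promoter coverage of the 9 genes in every list. Of 2001 bp, 46 bp were covered in EB, 255 bp in progenitors, 36 bp in no Dox, 0 bp in iHoxc6, and 84 bp and 0 bp in iHoxc9 and iHoxc10. Only the progenitor list covered the 250 bp before the start to any extent, with 200 bp. The window was covered over 1061, 2199, 2131, 2065, 1198 and 2593 bp, lowest in EB and iHoxc9 and highest in iHoxc10. Most of this lay far from the gene, and the neighbour Fam241b starts 10.8 kb downstream.

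Neurod1 and Neurod4 act after the neurogenins and carry neuronal differentiation forward. The promoter of Neurod1 (chromosome 2, 79452521 to 79456751, minus strand) was covered over 360, 439, 635, 521, 677 and 711 bp, with EB lowest and the day 4 lists above both earlier ones. Its window was covered over 1784, 2131, 2876, 3598, 1926 and 2714 bp, highest in iHoxc6. The neighbour Cerkl starts 34 bp upstream, so the promoter values belong to either gene. It also spans the gene body of Neurod1 and reaches the region 53.5 kb downstream, so coverage there lies within both genes or within Cerkl. Neurod4 (chromosome 10, 130268152 to 130280240, minus strand) showed a narrower promoter and a wide field of distal regions. Its promoter was covered over 294, 482, 482, 646, 265 and 171 bp and its window over 2696, 4974, 6963, 5272, 3377 and 2370 bp in 12, 15, 20, 13, 13 and 10 domains. In iHoxc10 the promoter and the window were both at their lowest.

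Atoh1 (chromosome 6, 64729125 to 64731245, plus strand), a dorsal gene, was already open in EB. Its promoter was covered over 1396, 1203, 1648, 1033, 1300 and 1078 bp and its window over 3207, 2733, 3933, 2407, 2271 and 1558 bp. The window was highest in no Dox, with EB second, and the 3 induced lists were the 3 lowest. A region 5.47 kb downstream of the TSS, held by all 6 lists, was covered over 888, 761, 695, 346, 470 and 235 bp, again with the induced lists lowest. An enhancer downstream of Atoh1 is known to drive it in the dorsal neural tube, and whether this region is that enhancer was not tested.

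Of the Notch targets, Hes1 (chromosome 16, 30064384 to 30067796, plus strand) had 1452 bp of its promoter covered in EB, 2001 bp in progenitors, 2001 bp in no Dox, 1764 bp in iHoxc6 and 1687 and 1706 bp in iHoxc9 and iHoxc10. It was fully open at day 2 and in no Dox and less so in EB and after induction. The region around it (chr16:30062862-30066293) was covered over 1793, 2885, 3415, 2890, 1995 and 2453 bp and the window over 3870, 4884, 6388, 4781, 3339 and 5474 bp, and no other protein-coding gene starts in that window. Hes5 (chromosome 4, 154960923 to 154962371, plus strand) had 589, 1217, 1311, 1497, 1108 and 1395 bp of its promoter covered, so that EB stood below all 5 other lists. Its window was covered over 3112, 5270, 5954, 5580, 2849 and 4802 bp, of which a part belongs to the promoter of Pank4, which starts 3.20 kb downstream. The region over the Pank4 promoter was covered over 762 bp in EB and 1434 bp in progenitors, so the window of Hes5 rose after EB at its own promoter as well as at that of a neighbour.

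Dll1 (chromosome 17, 15367354 to 15376872, minus strand) had the largest rise of the 9 windows between EB and progenitors. Its promoter was covered over 658 bp in EB, 1068 bp in progenitors, 1599 bp in no Dox, 1495 bp in iHoxc6, and 824 bp and 1701 bp in iHoxc9 and iHoxc10. The gene body was covered over 919, 2571, 2942, 2410, 1415 and 1712 bp and the window over 3172, 7905, 8744, 7255, 4240 and 6244 bp. EB was lowest and iHoxc9 next on all 3 measures. The region at the promoter (chr17:15374765-15377572) went from 878 bp in EB to 2175 bp in progenitors and 2687 bp in no Dox. A region 4.78 kb upstream was covered over 1005, 2306, 2110, 1966, 1330 and 1711 bp, and the neighbour Fam120b starts 19.3 kb upstream.

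The promoters of 3 of the genes are shown here as the 250 bases before the RefSeq start (GRCm38.p6), on the strand of the gene, with CAGATG and CAGCTG (E-boxes) and TGGGAA (the core of the RBPJ site) in capitals where found on either strand. Hes5 (chr4:154960673-154960922) is shown because it is a Notch target, Dll1 (chr17:15376933-15377182) because this stretch went from closed to open, and Neurog3 (chr10:62132840-62133089) because it was open in the progenitor list alone.
Hes5: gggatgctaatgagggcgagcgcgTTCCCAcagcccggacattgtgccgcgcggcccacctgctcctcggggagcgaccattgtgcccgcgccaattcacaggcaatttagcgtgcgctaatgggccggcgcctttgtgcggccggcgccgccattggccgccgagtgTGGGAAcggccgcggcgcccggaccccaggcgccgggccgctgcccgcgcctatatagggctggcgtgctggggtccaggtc
Dll1: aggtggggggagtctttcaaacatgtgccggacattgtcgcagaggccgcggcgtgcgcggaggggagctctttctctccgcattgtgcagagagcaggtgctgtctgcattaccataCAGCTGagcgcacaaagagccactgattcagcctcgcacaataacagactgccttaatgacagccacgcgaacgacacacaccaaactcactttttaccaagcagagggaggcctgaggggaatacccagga
Neurog3: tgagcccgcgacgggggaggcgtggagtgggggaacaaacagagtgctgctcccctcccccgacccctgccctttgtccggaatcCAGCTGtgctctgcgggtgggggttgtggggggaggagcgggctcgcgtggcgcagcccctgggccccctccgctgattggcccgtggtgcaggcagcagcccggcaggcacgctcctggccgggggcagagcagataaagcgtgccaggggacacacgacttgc
The Hes5 stretch holds TGGGAA 2 times, in opposite orientations, and it was covered over 196 bases in EB and over all 250 in each of the other 5 lists. TGGGAA occurs in 21.6% of 32851 RefSeq promoter stretches of this length. The Dll1 stretch was covered over 0, 218, 250, 250, 174 and 250 bases and the Neurog3 stretch over 0, 200, 0, 0, 0 and 0 bases, and each holds CAGCTG 1 time, as do 13.0% of such stretches. CAGATG was in none of the 3 and in 14.4% of all. Among those not shown, the stretch of Neurog2 went from 12 covered bases in EB to 250 in the 5 other lists and that of Neurod4 was covered over 133, 250, 250, 250, 168 and 120 bases, and neither holds any of the 3 words. Those of Neurog1, Neurod1 and Atoh1 hold none of them either. The 3 stretches shown are thus the only ones of the matched genes with any of these words. Of the 9 genes, 8 were matched in the RefSeq promoter table, and Hes1 was not. The RefSeq start of Dll1 lies 60 bp upstream of the GENCODE start used elsewhere. A match in letters is a description and does not show a bound site.

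The comparison of progenitors with EB asks what changed over the first 2 days with patterning signals. No group spent these days without the signals, so signals and elapsed time cannot be told apart. With 200 bp added to both sides of each ratio, 5 of the 9 windows were covered at least 1.5-fold more in progenitors: Dll1 (2.40-fold), Neurog2 (2.09), Neurog3 (1.90), Neurod4 (1.79) and Hes5 (1.65). None was covered at least 1.5-fold less. Among 21004 genes with a domain in either list, 10.7% were higher and 11.7% lower by this measure. Dll1, Neurog2, Neurog3 and Neurod4 lay above the 95th percentile of all genes, which was 1.78. Hes1 (1.25), Neurog1 (1.21) and Neurod1 (1.17) were slightly above and Atoh1 (0.861) slightly below equality, and the median over the 9 windows was 1.65 against 1.05 over all genes. The progenitor list covered 1.12 times the bp of the EB list. After division by the covered bp of each list, 4 of 9 were still called higher, where 6.82% of all genes were, and Hes5 came to 1.49. The median over the 5 neural progenitor markers was 1.70, and 3 of them were called higher. It was 1.17 over the 5 motor neuron markers, with 0 called higher and 1 lower. Over the 5 mesoderm and endoderm markers it was 1.15, with 0 called higher and 2 lower.

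Between progenitors and the day 4 control no window of the 9 passed 1.5-fold in either direction, where 10.0% of genes did upward and 4.28% downward. The ratios of no Dox to progenitors ran from 0.972 (Neurog3) to 1.41 (Atoh1) with a median of 1.25, against 1.11 over all genes, and the no Dox list covered 1.16 times the bp of the progenitor list. Summed over the 9 windows the ratio was 1.22, against 1.59 between EB and progenitors. Median ratios of no Dox to progenitors were 1.74 over the 5 motor neuron markers, with 4 called higher, and 1.44 over the 5 neural progenitor markers, with 1 called higher. Over the 5 mesoderm and endoderm markers the median was 1.11, with 1 called lower. The cell line and the record series also differ between these groups, and the calling settings may. None of these can be told apart from the day.

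The comparison of each induced line with no Dox asks what 48 h of a Hox factor changed, and the 3 comparisons share the no Dox list. In iHoxc6, Atoh1 was covered 0.631-fold as much and the other 8 windows did not pass 1.5-fold, whereas 10.5% of genes were lower and 2.12% higher. In iHoxc9, 8 of 9 windows were lower, all but Neurod1 (0.691), but so were 56.4% of genes, with 1.22% higher. Neurod1 was called lower as well without promoters of other genes (0.594) and with 100 kb flanks (0.646). It was not with 20 kb flanks (0.809), domains of at least 150 bp (0.713), lists of equal length (0.681) or scaling (1.11). In iHoxc10, 3 of 9 were lower, Neurod4 (0.359), Atoh1 (0.425) and Neurog2 (0.631), against 35.5% of genes lower and 0.892% higher. The medians over the 9 windows were 0.832, 0.537 and 0.720 for iHoxc6, iHoxc9 and iHoxc10, those over all genes 0.841, 0.638 and 0.722, and the ratios of whole lists 0.833, 0.597 and 0.676. The summed bp of the 9 windows were 0.823, 0.495 and 0.682 of those in no Dox. The drop at these genes was thus about that of the lists as a whole in iHoxc6 and iHoxc10 and larger than it in iHoxc9. Windows of cell type markers moved too, and their part in these ratios was not tested. For iHoxc9 over no Dox the median was 0.465 over the 5 neural progenitor markers, all 5 called lower, 0.375 over the 5 motor neuron markers, 4 called lower, and 0.674 over the 5 mesoderm and endoderm markers, 2 called lower.

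Neurog1 stood apart from this common drop. Its ratio of iHoxc9 to no Dox was 0.240, below the 5th percentile of all genes (0.381). After division by the covered bp of each list, which brings the median over all genes to 1.00, it was 0.385 and the only one of the 9 called lower, where 9.23% of genes were. The scaled ratios of the other 8 ran from 0.809 (Hes5) to 1.11 (Neurod1), and the ratio of Neurog2 turned from 0.620 to 1.02. In iHoxc10 the ratios of Neurod4 and Atoh1 were likewise below the 5th percentile (0.455). Scaled, they were 0.521 and 0.611 and both were called lower, as were 7.20% of genes. Neurog3 was called higher in iHoxc10 when scaled (1.71, unscaled 1.20), where 3.33% of genes were.

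**Figure D3:**
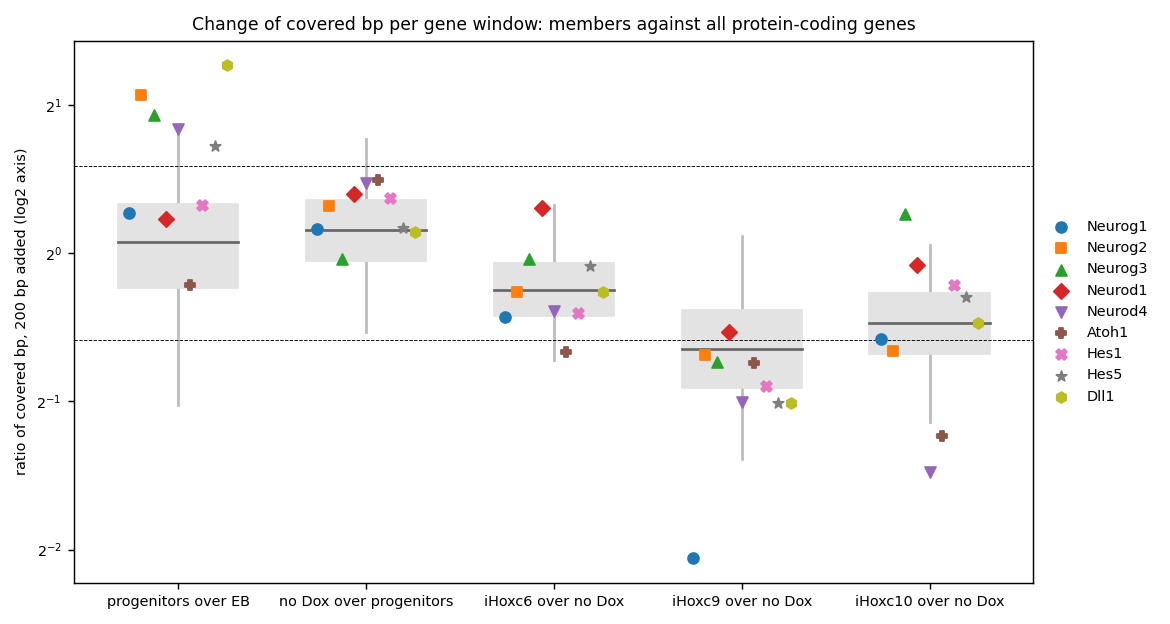
Ratio of covered bp per window with 200 bp added to both sides (y axis, log2 scale) for the 5 comparisons (x axis): symbols are the 9 genes, grey boxes span the quartiles of all protein-coding genes with a line at the median, grey lines span the 5th to 95th percentile, and dashed lines mark 1.5-fold up and down. Dll1 at 2.40 stands highest for progenitors over EB and Neurog1 at 0.240 lowest for iHoxc9 over no Dox, while the whole grey distribution lies lower for iHoxc9 and iHoxc10.

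Merged wherever they overlapped by 1 bp, the domains of the 6 lists formed 168 regions in the 9 windows. Of these, 38 (22.6%) were held by all 6 lists, against 11.2% of 218562 regions in the genome, and their widest domains had a median of 853 bp. Another 8 (4.76%, genome 2.77%) were absent from EB and held by the 5 other lists, and 2 (1.19%, genome 1.07%) were absent from EB and progenitors and held by all 4 day 4 lists. EB alone held 17 (10.1%, genome 21.1%). Regions in at least 1 induced line but neither in progenitors nor in no Dox, called induction-associated, numbered 29 (17.3%, genome 22.6%), and 22 of them were under 50 bp wide at their widest. Regions held by progenitors and no Dox but missing from at least 1 induced line, called lost, numbered 19 (11.3%, genome 8.27%). The other 55 fitted none of these patterns, with 23 in no Dox alone, 21 in progenitors alone and 11 in 2 or more lists. Genome shares of these 3 kinds are not given, so nothing is read from their counts. Regions shared by all lists had the highest median width and induction-associated ones, with a median of 39 bp, the lowest. Since 1 bp of overlap counted, a wide region is more readily held by all lists, so this order follows in part from the rule.

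**Figure D4:**
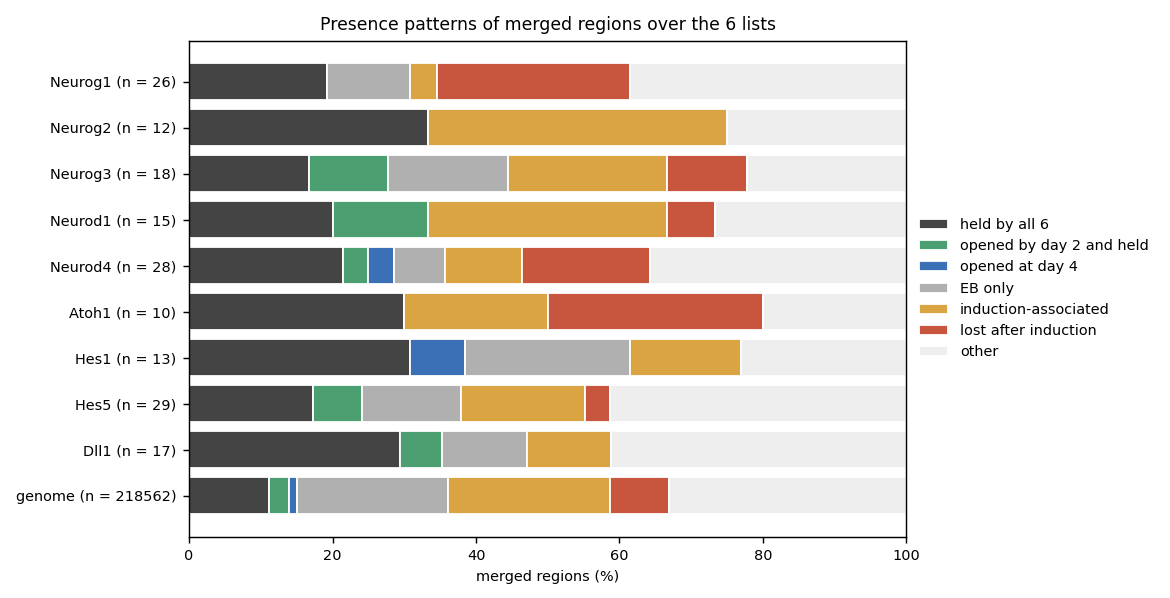
Each bar divides the merged regions of a gene window, or of the whole genome (bottom bar), by the lists that held them, as a percentage of regions (x axis); n is the number of regions. Lost regions make up 7 of 26 at Neurog1, 3 of 10 at Atoh1 and none at Neurog2, Hes1 and Dll1.

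The regions that opened by day 2 and were kept lay at 5 of the 9 genes, 2 each at Neurog3, Neurod1 and Hes5 and 1 each at Neurod4 and Dll1, with none at Neurog1, Neurog2, Atoh1 and Hes1. The 3 widest were 23.7 kb downstream of the Neurod4 TSS (0, 798, 744, 743, 388 and 209 bp), 4.79 kb downstream of the Dll1 TSS inside the gene and over an exon (0, 610, 643, 540, 322 and 472 bp), and 41.8 kb downstream of the Neurog3 TSS (0, 574, 638, 419, 177 and 544 bp). All 3 were narrowest in iHoxc9 or iHoxc10 among the lists that held them, which were also the lists covering the least bp over the genome (17.8 and 20.1 Mb). The pair that opened at day 4 lay 38.1 kb downstream of Hes1 (0, 0, 550, 72, 177 and 664 bp) and 7.90 kb upstream of Neurod4 (0, 0, 171, 238, 272 and 171 bp). The first was wide in no Dox and iHoxc10 and narrow in iHoxc6 and iHoxc9, and the second was of similar width in all 4. Of the regions found in EB alone, the widest were 17.8 kb upstream (354 bp) and 23.0 kb downstream (307 bp) of Hes5 and 3.2 kb downstream of Neurog3 in an intron of Fam241b (252 bp).

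Neurog2 had no lost region and 5 induction-associated ones. The widest of these, 9.4 kb downstream of its TSS (chr3:127642285-127642694), was absent from EB, progenitors and no Dox and was covered over 34 bp in iHoxc6, 410 bp in iHoxc9 and 297 bp in iHoxc10. It was the widest induction-associated region at the 9 genes and was broad in both posterior Hox lines. The next widest was 20.2 kb upstream of Neurod1 (chr2:79476769-79477038), with 270 bp in iHoxc10 and none in any other list. A region 7.21 kb upstream of Neurog1, covered over 59 bp in iHoxc6 and 106 bp in iHoxc10, came next by its domain in EB, which was 253 bp wide. By width in the induced lists a region 12.1 kb upstream of Hes5, with 114 bp in iHoxc6, was wider.

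Sequences of wide changing regions outside exons and outside promoters of other genes are given as the central 200 bases of the widest domain (GRCm38, plus strand). For the induction-associated regions at Neurog2 (chr3:127642390-127642589) and Neurod1 (chr2:79476804-79477003), capitals mark TAAT and TTTAT, cores of Hox sites, on either strand. A base can belong to both words.
9.4 kb downstream of Neurog2: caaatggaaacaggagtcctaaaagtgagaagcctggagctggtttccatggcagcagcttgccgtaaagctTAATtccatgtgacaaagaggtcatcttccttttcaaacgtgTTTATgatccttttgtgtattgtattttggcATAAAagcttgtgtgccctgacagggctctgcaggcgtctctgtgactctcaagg
20.2 kb upstream of Neurod1: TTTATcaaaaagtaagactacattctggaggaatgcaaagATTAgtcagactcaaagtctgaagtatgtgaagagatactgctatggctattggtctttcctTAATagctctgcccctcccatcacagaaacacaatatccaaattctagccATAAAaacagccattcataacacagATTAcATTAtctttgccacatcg
The Neurog2 region holds TAAT 1 time and TTTAT 2 times, and the Neurod1 region holds them 4 and 2 times. Stretches of this length were searched at 5175 of the 49419 induction-associated regions of the genome, and 76.0% held TAAT and 61.1% held TTTAT. The shares were 52.2% and 32.4% of 55409 stretches of all named patterns, without the regions that fitted none of them. Of these, 22431 were held by all lists, with shares of 31.4% and 17.6%. The shares were 82.4% and 57.9% among stretches that opened at day 4, no Dox included, and 73.9% and 50.8% among those that opened by day 2, so high shares of these words were not particular to induction. For the regions opened by day 2 at Neurod4 (chr10:130256452-130256651) and Neurog3 (chr10:62174750-62174949), opened at day 4 at Hes1 (chr16:30102416-30102615) and Neurod4 (chr10:130288040-130288239), and lost at Neurod4 (chr10:130238714-130238913), capitals mark the same E-box and RBPJ words as in the promoters.
23.7 kb downstream of Neurod4: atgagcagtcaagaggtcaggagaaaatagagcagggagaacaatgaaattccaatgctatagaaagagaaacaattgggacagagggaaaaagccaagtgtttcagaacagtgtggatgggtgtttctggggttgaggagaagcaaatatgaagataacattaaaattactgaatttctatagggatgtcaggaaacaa
41.8 kb downstream of Neurog3: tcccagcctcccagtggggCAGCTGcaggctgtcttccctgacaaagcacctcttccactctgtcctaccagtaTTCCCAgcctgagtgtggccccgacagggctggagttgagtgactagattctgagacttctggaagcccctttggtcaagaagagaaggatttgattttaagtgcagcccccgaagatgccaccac
38.1 kb downstream of Hes1: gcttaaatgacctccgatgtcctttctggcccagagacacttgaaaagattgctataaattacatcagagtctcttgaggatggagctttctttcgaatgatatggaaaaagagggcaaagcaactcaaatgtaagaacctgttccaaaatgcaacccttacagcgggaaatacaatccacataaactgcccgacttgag
7.9 kb upstream of Neurod4: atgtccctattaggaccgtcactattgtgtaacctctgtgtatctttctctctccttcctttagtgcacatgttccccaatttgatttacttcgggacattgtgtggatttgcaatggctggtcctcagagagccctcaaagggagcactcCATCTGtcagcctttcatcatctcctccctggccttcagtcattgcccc
41.4 kb downstream of Neurod4: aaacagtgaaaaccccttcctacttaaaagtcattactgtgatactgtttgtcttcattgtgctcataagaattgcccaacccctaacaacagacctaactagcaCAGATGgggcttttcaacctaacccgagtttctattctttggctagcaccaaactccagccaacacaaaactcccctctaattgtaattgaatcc
An E-box CAGATG was present in the Neurod4 regions 7.9 kb upstream and 41.4 kb downstream, 1 time each. The Neurog3 region held CAGCTG 1 time and TGGGAA 1 time, and the regions at Hes1 and 23.7 kb downstream of Neurod4 held none of the 3 words. CAGATG was in 26.0% of 2050 stretches that opened at day 4 and in 19.0% of 12201 lost ones, against 16.0% of the 55409. Of the 5705 stretches that opened by day 2, 19.7% held CAGCTG and 18.9% TGGGAA, against 16.0% and 17.4% of the 55409.

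Loss of regions held before induction was uneven over the genes. Progenitors and no Dox both held 65 regions of the 9 windows, of which 5 were missing from iHoxc6 (7.69%, 95% Wilson interval 3.33 to 16.8%), 15 from iHoxc9 (23.1%, 14.5 to 34.6%) and 11 from iHoxc10 (16.9%, 9.72 to 27.8%). Across 48532 such regions of the genome, 11.7%, 27.5% and 26.6% were missing. The intervals cover the counting of regions only and treat regions of the same gene as independent, so they make no test against these shares. By gene, Neurog1 had 12 such regions, with 4 missing from iHoxc6, 7 from iHoxc9 and 5 from iHoxc10. The 4 missing from iHoxc6 were missing from all 3 induced lists, and none at the other 8 genes was missing from all 3. This was 4 of the 65 regions, while 7.69% of the 48532 regions of the genome were missing from all 3. They lay 28.4 and 1.40 kb downstream and 6.08 and 7.82 kb upstream of the TSS, and were covered over 28 to 304 bp in no Dox. Neurod4 had 12, with 0, 4 and 3 missing, and Atoh1 had 6, with 0, 1 and 2 missing. At Neurog2 (4), Hes1 (4) and Dll1 (6), none was missing from any induced line.

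Lost regions with domains over 500 bp wide lay, among other places, 41.4 kb downstream of Neurod4 (0, 640, 667, 289, 0 and 0 bp) and 7.93 kb upstream of Hes5 (0, 534, 459, 393, 0 and 38 bp). The Neurod4 region was missing from both posterior lines and the Hes5 region from iHoxc9, with 38 bp in iHoxc10. In iHoxc6 both kept 289 bp or more.

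**Figure D5:**
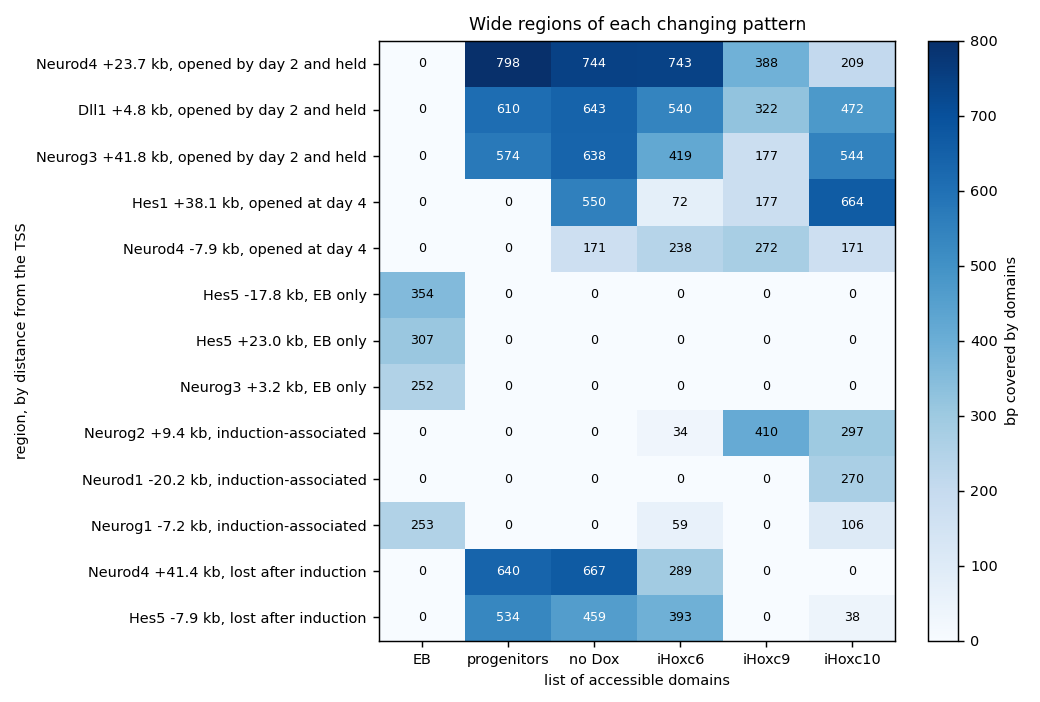
Rows are wide regions of each changing pattern, named by gene and distance from the TSS, columns are the 6 lists, and colour and printed number give the bp covered by domains. The 2 rows of regions lost after induction, at Neurod4 and Hes5, hold 459 to 667 bp in progenitors and no Dox and 0 bp in iHoxc9.

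The other 42 genes of the pathway and of its bHLH partners, taken as a list and not by their values are given for context. A promoter domain at the gene start was present for 37, 35, 33, 36, 35 and 34 of them. Counting the start of any transcript of a gene, it was 40, 39, 38, 40, 39 and 38, with 38 in all 6 lists. The share of all genes was counted at the gene start only. Over all protein-coding genes the share ran from 59.0% (iHoxc10) to 65.6% (EB). Between EB and progenitors 6 of 42 windows were covered at least 1.5-fold more and 1 less, with a median ratio of 1.21. Among all genes 10.7% were higher and 11.7% lower, with a median of 1.05. In the ligand and receptor list (Dll3, Dll4, Jag1, Jag2 and the Notch receptors) 3 of 8 were higher, among them the receptor Notch1, from 3580 to 8070 bp. None of the 6 modulators (Lfng, Mfng, Rfng, Numb, Numbl, Nrarp) and none of the 6 other effectors (Hes3, Hes6, Hes7, Hey1, Hey2, Heyl) passed 1.5-fold. Between progenitors and no Dox 4 were higher and 1 lower, with a median of 1.21, where 10.0% of all genes were higher and 4.28% lower. Against no Dox, 4 of 42 were lower in iHoxc6, 32 in iHoxc9 and 14 in iHoxc10, with medians of 0.815, 0.563 and 0.707 and none higher in any of the 3. Over all genes 10.5%, 56.4% and 35.5% were lower and 2.12%, 1.22% and 0.892% higher, with medians of 0.841, 0.638 and 0.722.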

How the data were processed

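The authors mapped paired-end ATAC-seq reads to mm10 with Bowtie2 2.2.2 and defined accessible domains with DomainFinder of the SeqCode project, and the submitters' processing notes also name Picard 2.8.2. The deposited values are chromosome, start and end of each domain, in bp, in 1 list per group made from both replicates. They carry no height, read count or p-value. The additional columns of the no Dox list are constant and were not used. Starts were read in BED style and printed counting from 1. Whether they count from 0 or from 1 is not stated, which leaves each position open to a shift of 1 bp. Genes, TSS and exons came from GENCODE M21 on GRCm38.p6, and 0 domains ran past the end of a chromosome. Promoter and region sequences came from RefSeq tables and the genome.

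Presence meant an overlap of at least 1 bp, and covered bp were counted per promoter, gene body and window. Ratios had 200 bp added to both sides and were called at 1.5-fold. Counts of members called by a rule were set beside the share of all genes or regions called by it. This was not done for the counts under the alternatives or for regions that fitted no named pattern. Shares of regions carry 95% Wilson intervals, which cover counting only. With 1 list per group no test was made.

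All 9 genes are named. The regions named are the 3 with the widest domain of each pattern, and sequences are given for up to 2 of these outside exons and other promoters, except the pattern found in EB alone, to which no result on sequence refers. The widest lost region, the interneuron marker list and 1 pathway gene are not reported here. Regions whose values are given for single genes beyond this rule, and Notch1 of the pathway lists, were chosen after their values were seen. The genes, lists and rules were chosen with earlier results of these data known. Alternatives changed the flanks, promoter width, transcript start, domain width, list length, scaling, added bp, fold threshold and required coverage. The code was tested on simulated data, where 0 of 5722 checks differed. Computations used Python 3.11.15, NumPy 2.4.6 and SciPy 1.17.1, and plots Matplotlib 3.10.9.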

Additional observations from a re-analysis of the deposited data

How the results depend on the processing

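No paired analysis was possible because the authors called each list on the reads of both replicates, so no value per replicate exists, and leaving out a replicate was not possible for the same reason. Of 191 summary values under the alternatives, 163 stayed within 1.5 times the reported value and 28 moved by more, as did 10 of 270 ratios of single genes, besides 1 ratio called lower that turned. Of all ratios, called or not, 15 of the 270 and 1 of 30 summed ratios lay on the other side of 1 than reported, 11 and 1 of them when scaled. The cause of each move was not tested, except where fewer domains or a longer stretch follow from the alternative itself. Scaled by the covered bp of each list, the ratio of summed bp of the 9 windows, iHoxc9 over no Dox, was 0.829 in place of 0.495, windows called lower were 1 in place of 8 in iHoxc9 and 0 in place of 1 in iHoxc6, 1 in place of 0 was called higher in iHoxc10, whose summed ratio came to 1.01 in place of 0.682, with Hes1 at 1.26, Hes5 at 1.18 and Dll1 at 1.05, and Neurog2 in iHoxc9 turned to 1.02. At 2-fold, 2 windows were higher in progenitors than in EB, and 0 and 4 were lower in iHoxc6 and iHoxc9. With 100 kb flanks 3 were higher in progenitors and 1 in no Dox over progenitors, and with domains of at least 150 bp the latter was also 1. Regions held by all 6 lists fell from 38 to 5, and lost regions rose from 19 to 30, when 50% of a region had to be covered. With 20 kb flanks, 3 regions opened by day 2, 1 opened at day 4, 8 were in EB alone, 19 were induction-associated and 10 were lost. With 100 kb flanks, 13 opened by day 2, 37 were in EB alone and 52 were induction-associated. With domains of at least 150 bp, 1 opened at day 4, 9 were in EB alone, 7 were induction-associated and 12 were lost. With lists of equal length, 11 were in EB alone and 19 induction-associated. Chosen after seeing the data, loss per line with lists of equal length was 3, 13 and 7 of 58 regions for iHoxc6, iHoxc9 and iHoxc10, and with domains of at least 150 bp it was 5, 11 and 9 of 47.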
